A study of Mus musculus with 6 samples.

Results

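The genes described here encode the phagocyte NADPH oxidase and 2 related oxidant-producing enzymes. They were chosen by symbol in the raw count table, and all 7 (Cybb, Cyba, Ncf1, Ncf4, Rac2, Nox4 and Nos2) were found, out of 54532 gene identifiers. RNA was sequenced from epididymal fat (eWAT, a visceral white fat depot of male mice) after 16 weeks of high-fat diet. The knockout group carried PD-1 fl/fl alleles (gene Pdcd1) and Lyz2-Cre, and its PD-1 fl/fl littermates without Cre formed the control group, with 3 libraries in each. Lyz2-Cre is active in macrophages, in neutrophils and to a varying extent in other myeloid cells, and not in T cells. The labels give no ages and do not say whether libraries are separate animals, so p-values measure the spread between these libraries, which may be technical.

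The phagocyte NADPH oxidase moves electrons from NADPH across a membrane to oxygen and so makes superoxide. Its membrane core is gp91phox (Cybb, the catalytic chain that binds haem and flavin) with p22phox (Cyba). Cytosolic subunits, among them p47phox (Ncf1) and p40phox (Ncf4), and the GTPase Rac2 join the core when the cell is activated. Nox4 is a constitutively active relative that pairs with p22phox, releases mainly hydrogen peroxide and is found in adipocytes, stromal cells and other non-phagocytic cells. Nos2 is the inducible nitric oxide synthase, which makes nitric oxide from arginine and is a classical product of inflammatory activation of mouse macrophages. In the fat of obese mice, macrophages gather around dying adipocytes, and the oxidase is among the products that such cells carry.

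Total counts were 22813206 to 25441746 in the knockout libraries and 20108185 to 27225533 in the controls. Control replicate 2 (titled HF_7690_eWAT) had a liver profile. Its 16 hepatocyte markers averaged 12.4 log2(CPM + 1), against 1.32 to 8.04 in the 5 other libraries, and its 14 adipocyte markers 5.66, against 9.39 to 10.7. Adipoq, the adiponectin gene of adipocytes, was at 11.2 CPM there and at 817 to 3649 CPM elsewhere. Control replicate 3 had the second highest hepatocyte level (8.04) and knockout replicate 2 the third (5.53). The 12 neutrophil markers were highest in control replicate 1, at a summed 266 CPM against 15.7 to 61.7 CPM elsewhere. Pdcd1 had 19, 19 and 5 counts in knockouts and 13, 0 and 0 counts in controls, too few to check the genotype in whole tissue, which also holds T cells.

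The start regions of 4 of the 7 members were in the RefSeq promoter table (build GRCm38.p6), each from 250 bases before to 50 bases after the annotated start. All 4 are shown, so that the 3 phagocyte genes among them can be read beside Nox4. Capitals mark GAAA, any 2 bases and GAAA again, on either strand, an element of the kind bound by interferon regulatory factors such as IRF8. Cybb lies on the minus strand at chrX:9469275-9469574, Cyba on the minus strand at chr8:122432891-122433190, Ncf1 on the minus strand at chr5:134229576-134229875 and Nox4 on the plus strand at chr7:87246399-87246698. The windows of Cybb and Nox4 lie inside the genes as GENCODE vM21 bounds them, since the start that RefSeq gives is downstream of the outermost GENCODE start.
Cybb: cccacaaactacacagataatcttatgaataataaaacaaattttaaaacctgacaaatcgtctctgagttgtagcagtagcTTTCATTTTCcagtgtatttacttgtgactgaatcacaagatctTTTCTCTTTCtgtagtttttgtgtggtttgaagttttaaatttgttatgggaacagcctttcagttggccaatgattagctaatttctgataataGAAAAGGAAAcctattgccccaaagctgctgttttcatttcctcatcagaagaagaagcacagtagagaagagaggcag
Cyba: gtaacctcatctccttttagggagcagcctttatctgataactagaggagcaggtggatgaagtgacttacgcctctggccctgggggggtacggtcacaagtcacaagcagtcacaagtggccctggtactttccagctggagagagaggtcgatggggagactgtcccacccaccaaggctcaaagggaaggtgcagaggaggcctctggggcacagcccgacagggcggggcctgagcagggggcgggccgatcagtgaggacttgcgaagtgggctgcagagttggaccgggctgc
Ncf1: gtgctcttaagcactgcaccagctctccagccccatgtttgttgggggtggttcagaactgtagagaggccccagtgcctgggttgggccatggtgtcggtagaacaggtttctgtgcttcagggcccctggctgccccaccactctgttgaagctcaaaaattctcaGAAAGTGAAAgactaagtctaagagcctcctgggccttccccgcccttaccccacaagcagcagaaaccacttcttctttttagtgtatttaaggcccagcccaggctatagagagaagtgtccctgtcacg
Nox4: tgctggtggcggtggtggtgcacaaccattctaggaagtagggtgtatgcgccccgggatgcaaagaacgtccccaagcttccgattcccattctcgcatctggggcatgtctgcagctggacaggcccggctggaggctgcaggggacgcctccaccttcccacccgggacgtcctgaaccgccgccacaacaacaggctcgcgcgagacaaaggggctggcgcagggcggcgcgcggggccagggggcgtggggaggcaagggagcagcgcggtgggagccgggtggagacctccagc
The Cybb region held the element 3 times, the Ncf1 region 1 time (bases -82 to -73 from the start), and the Nox4 and Cyba regions 0 times. Of the 32851 start regions in the table, 3.4% held it at least 1 time. A second pattern, GAGGAA on either strand, the core of sites of ETS factors such as PU.1, occurred 1 time in the Cybb region, 9 to 14 bases after the start, and 0 times in the other 3, against 28.3% of all regions. No occurrence of the second pattern in Cybb overlapped the first. These matches describe the letters in these windows and not binding.

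All 5 phagocyte subunits were higher in each knockout library than in each control library, by 1.58 to 2.42 on the log2 scale in the group comparison, and knockout replicates 1 and 2 stood well above knockout replicate 3. Levels of single genes are given as CPM (counts scaled to library size, with TMM factors), and group differences as log2 fold changes of knockout over control, with standard errors. No member passed the edgeR quasi-likelihood test adjusted over all 15928 genes, where 0% of genes were called. Without adjustment, 5 of 7 members had p under 0.05 with higher values in knockouts, against 4.38% of all genes tested, and 0 of 7 with lower values, against 4.27%. The members were chosen with earlier results of these data known, so such shares, here and below, are descriptions and not tests. The median log2 fold change was 2.25 over the 7 members, 6 of them above 0, and -0.03 over all genes tested.

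**Figure D1:**
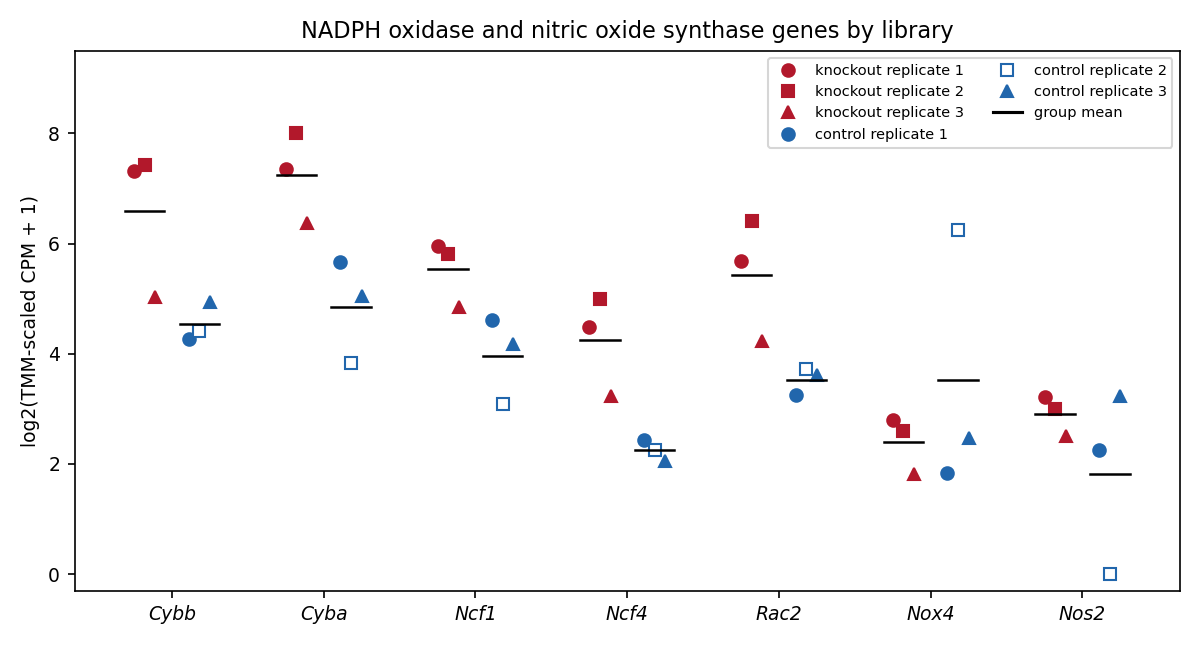
Levels of the 7 genes on the y axis as log2(TMM-scaled CPM + 1), with the 3 knockout libraries (red) left of the 3 controls (blue) for each gene, group means as black lines and control replicate 2 as open squares. Cybb, Cyba, Ncf1, Ncf4 and Rac2 do not overlap between groups, Nox4 is highest in control replicate 2 and Nos2 is at 0 there.

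Of the membrane core, Cybb (chromosome X, 9435252 to 9487771, minus strand, GRCm38) had 158, 172 and 31.7 CPM in knockouts and 18.4, 20.2 and 29.7 CPM in controls. Knockout replicate 3 thus lay just above control replicate 3, with 818 against 809 counts, while knockout replicates 1 and 2 stood far above every control. The means were 120 ± 77.1 CPM in knockouts and 22.7 ± 6.07 CPM in controls (SD, n = 3 each), a log2 fold change of 2.40 ± 0.66 (edgeR adjusted p 0.560). Cyba (chromosome 8, 122424776 to 122432930, minus strand) had 163, 256 and 82.0 CPM in knockouts and 49.8, 13.3 and 32.0 CPM in controls. Here the lowest knockout stood clear of the highest control, and the control with the liver profile was lowest. The log2 fold change of Cyba was 2.40 ± 0.64 (edgeR adjusted p 0.560).

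Of the cytosolic subunits, Ncf1 (chromosome 5, 134220053 to 134229625, minus strand) had 60.95, 55.0 and 28.0 CPM in knockouts and 23.6, 7.51 and 17.0 CPM in controls. Its groups were the closest of the 5 subunits in fold change, at 1.58 ± 0.52 (edgeR adjusted p 0.560). Of its 3663 exonic bases, 408 overlap exons of Gtf2ird2 on the opposite strand, and the strand setting of the counting is not given in the sources used here. Gtf2ird2 had 215, 190 and 178 counts in knockouts and 68, 54 and 115 counts in controls, fewer than Ncf1 in each library. Ncf4 (chromosome 15, 78244801 to 78262580, plus strand) had 21.5, 30.9 and 8.42 CPM in knockouts and 4.42, 3.76 and 3.15 CPM in controls. The controls lay within a narrow range, at 3.78 ± 0.633 CPM, and the log2 fold change was 2.42 ± 0.54 (edgeR adjusted p 0.560).

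Rac2, the Rac GTPase of blood cells (chromosome 15, 78559167 to 78572783, minus strand, 296.6 kb from Ncf4), had 50.3, 83.5 and 17.7 CPM in knockouts and 8.54, 12.2 and 11.2 CPM in controls. All knockouts were above all controls, with a log2 fold change of 2.25 ± 0.58 (edgeR adjusted p 0.560). Its widely expressed paralog Rac1 had 356, 357 and 287 CPM in knockouts and 291, 232 and 272 CPM in controls, with groups that overlapped (0.33 ± 0.35, edgeR adjusted p 0.812). No 50-base stretch of the longest coding Rac2 transcript occurs in a Rac1 transcript of GENCODE vM21, and 0.502% of its stretches occur in transcripts of any other gene. Cybb, Cyba, Ncf4, Nox4 and Nos2 shared 0% of such stretches with other genes and Ncf1 0.247%.

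Knockouts and controls did not overlap, with knockouts above, for 5 of 7 members, against 9.54% of all genes tested, and with knockouts below for 0 of 7, against 5.61%. DESeq2 with all 6 libraries called Cybb, Cyba, Ncf4 and Rac2 (adjusted p 0.0332, 0.0245, 0.00949 and 0.0309) and did not call Ncf1 (0.153), so 4 of 7 members were called higher, against 1.42% of genes (3.13% in either direction). Without control replicate 2 the same genes were called by DESeq2 (adjusted p 0.0281, 0.0103, 0.00536 and 0.0119), against 2.22% of genes (2.9% in either direction). The edgeR log2 fold changes without that library were 2.35 ± 0.77 for Cybb, 2.05 ± 0.56 for Cyba, 1.25 ± 0.41 for Ncf1, 2.44 ± 0.62 for Ncf4 and 2.38 ± 0.68 for Rac2. None passed at an edgeR adjusted p of 0.540, in a fit that called 0% of genes, and the 5 subunits had unadjusted p under 0.05 where 5.46% of genes did in that direction, and 3.5% in the other. For each subunit the estimates with and without the library with the liver profile differed by less than 1 standard error.

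**Figure D2:**
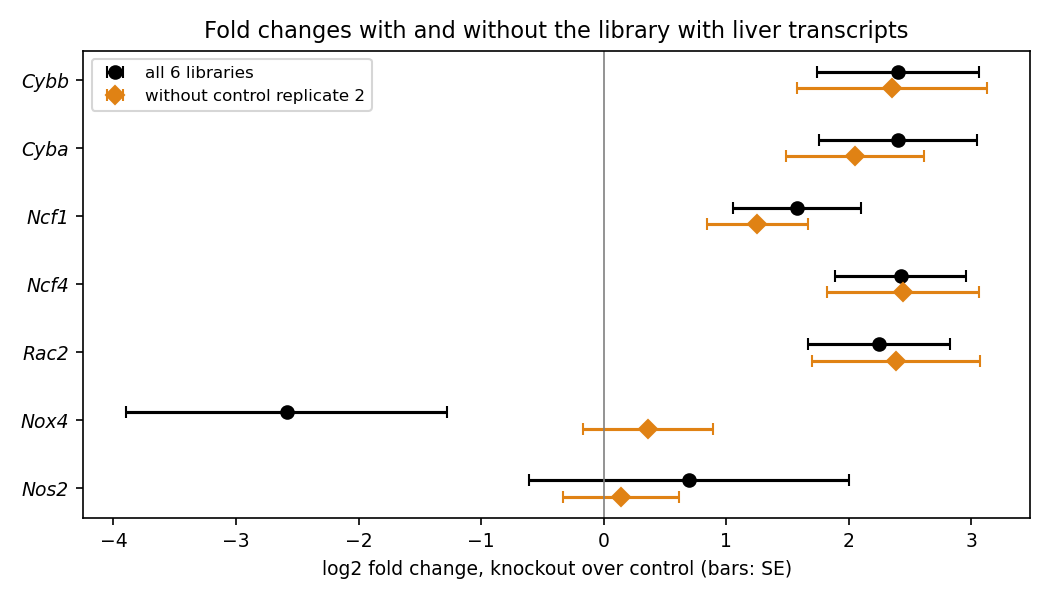
Log2 fold change of knockout over control on the x axis for each gene, with bars of 1 standard error, for all 6 libraries (black circles) and without control replicate 2 (orange diamonds). The 5 phagocyte subunits stay between 1.25 and 2.44 in both, while Nox4 is at -2.59 with all libraries and at 0.36 without that control.

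The macrophage markers moved with these genes. The 15 markers averaged 303, 353 and 92.6 CPM in knockouts and 90.2, 33.7 and 73.5 CPM in controls, and Marco and Cd163 alone had log2 fold changes below 0. For Adgre1, which encodes F4/80 of the macrophage surface, the knockouts had 268, 379 and 49.3 CPM and the controls 28.9, 12.1 and 33.5 CPM. Csf1r, the receptor for macrophage growth factor, differed by 1.82 ± 0.61 and the lysosomal Cd68 by 3.20 ± 1.00 on the log2 scale, with no overlap between groups in either. Control replicate 2 also held markers of Kupffer cells, the macrophages of liver, with 1365 counts of Clec4f against 0 to 192 counts elsewhere. The part of macrophage number in the values of the members was not tested: in bulk tissue, fewer cells of a type and less RNA per cell cannot be told apart. Each member was therefore also divided by the mean CPM of the 15 macrophage markers in its own library. In this arithmetic mean the most abundant markers weigh most. The 15 include Lyz2, the gene of Lyz2-Cre, which only the knockout group carried, and no ratio was computed without it. The ratios were compared by an exact two-sided permutation test, which cannot go below 0.1 with 3 against 3 libraries.

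Relative to the macrophage markers, Cybb stood at 0.519, 0.487 and 0.343 in knockouts and at 0.204, 0.600 and 0.403 in controls. The groups overlapped, and the difference of mean log2 ratios, knockout minus control, was 0.272 (exact permutation p = 0.7). The edgeR log2 fold change of 2.40 before division is a different measure, so these values are not directly comparable. Cyba stood at 0.538, 0.726 and 0.886 in knockouts and at 0.552, 0.395 and 0.435 in controls, where only knockout replicate 1 lay among the controls (0.622, exact permutation p = 0.2). Ncf1 was at 0.201, 0.156 and 0.302 in knockouts and at 0.262, 0.223 and 0.231 in controls (-0.171, exact permutation p = 0.7). These knockouts lay on both sides of the controls.

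Ncf4 was at 0.0709, 0.0875 and 0.0909 per unit of macrophage markers in knockouts and at 0.0490, 0.111 and 0.0429 in controls (0.423, exact permutation p = 0.4). Rac2 was at 0.166, 0.237 and 0.192 in knockouts and at 0.0947, 0.361 and 0.152 in controls (0.177, exact permutation p = 0.8). For Cybb, Ncf4 and Rac2 the highest ratio of all was in control replicate 2 and the lowest in control replicate 1 or 3. Each knockout was above both control replicates 1 and 3 for Ncf4 and Rac2, but not for Cybb, Cyba and Ncf1. With all 6 libraries the 5 differences lay between -0.171 and 0.622 on the log2 scale. Without control replicate 2 they were 0.627 for Cybb, 0.519 for Cyba, -0.219 for Ncf1, 0.850 for Ncf4 and 0.706 for Rac2, so that those of Cybb, Ncf4 and Rac2 depended on that library. The exact test of 3 against 3 libraries could not have reached 0.05.

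**Figure D3:**
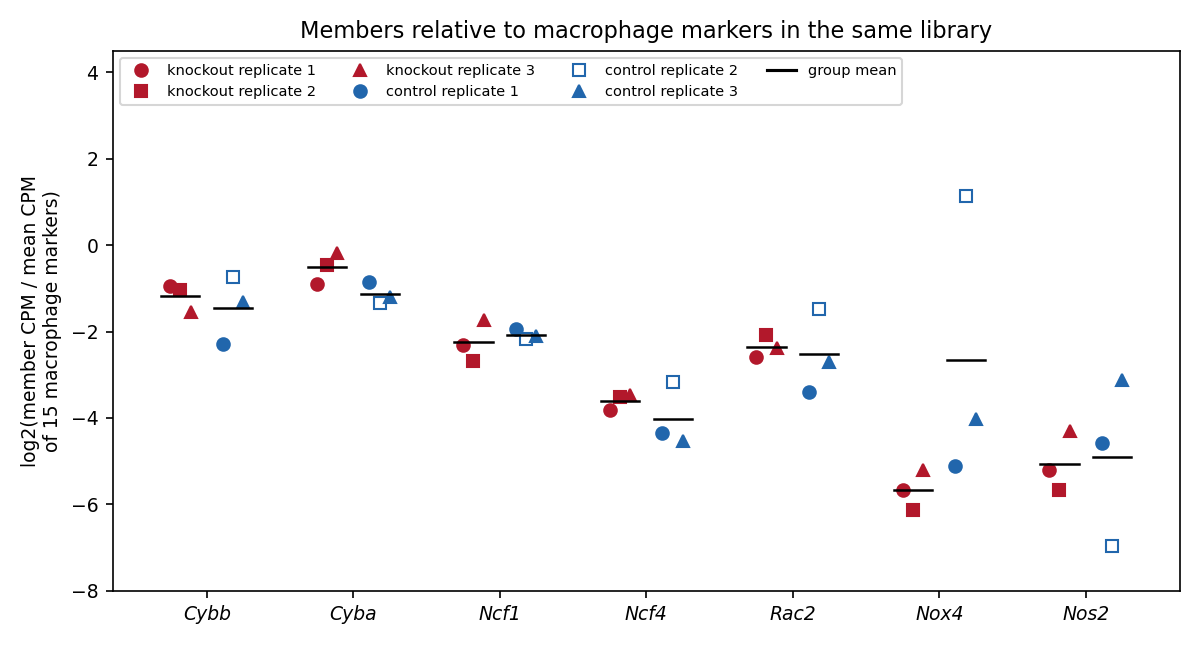
Each gene's CPM divided by the mean CPM of 15 macrophage markers in the same library, as a log2 ratio on the y axis, with knockouts (red) left of controls (blue), group means as black lines and control replicate 2 as open squares; Nos2 in that library is drawn at the floor of 3 counts. The 5 phagocyte subunits overlap between groups on this scale, Ncf4 and Rac2 only through control replicate 2. Nox4 in control replicate 2 stands far above all other libraries at a ratio of 2.21.

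Levels of different genes were compared per length, in the FPKM values of the deposited table, within each library. Cyba had the highest FPKM of the 7 members in each library, at 140, 226 and 68.9 FPKM in knockouts and 41.6, 12.01 and 27.6 FPKM in controls. Cybb had 24.2, 27.2 and 4.77 FPKM in knockouts and 2.74, 3.26 and 4.58 FPKM in controls, second to Cyba in knockout replicates 1 and 2 and control replicate 3. Ncf1 was second in knockout replicate 3 and control replicate 1, and Nox4 in control replicate 2. The excess of Cyba over its partner Cybb was uneven, at 5.79, 8.34 and 14.4 times in knockouts and 15.2, 3.69 and 6.03 times in controls. The highest excess was thus in knockout replicate 3 and control replicate 1, and the groups overlapped.

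Ncf1 had 0.613, 0.507 and 1.40 times the FPKM of Cybb in knockouts and 2.04, 0.589 and 0.909 times in controls. Ncf4 had 0.640, 1.02 and 0.546 times the FPKM of Ncf1 in knockouts and 0.340, 0.907 and 0.336 times in controls. Among the libraries without the liver profile, this last ratio was higher in each knockout than in control replicates 1 and 3. The control with the liver profile lay within the knockout range. Rac1 exceeded Rac2 in each library, by 4.89, 2.95 and 11.2 times in knockouts and by 23.5, 13.2 and 16.8 times in controls, so that the share of Rac2 was higher in each knockout.

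Nox4 (chromosome 7, 87246096 to 87398710, plus strand) had 5.98, 5.05 and 2.52 CPM in knockouts and 2.58, 74.7 and 4.55 CPM in controls. The library with the liver profile stood far above all others, and the 5 others overlapped between groups. The log2 fold change was -2.59 ± 1.31 with all 6 libraries (edgeR adjusted p 0.580) and 0.36 ± 0.53 without control replicate 2 (adjusted p 0.856), so its sign rests on that library. With all 6 libraries DESeq2 gave no p-value for Nox4. Per length, Nox4 stood at 0.629, 0.547 and 0.260 FPKM in knockouts and at 0.265, 8.25 and 0.481 FPKM in controls. In the 5 libraries without the liver profile it was thus at 0.0201 to 0.105 times the FPKM of Cybb, and in control replicate 2 at 2.53 times. Alb, the albumin gene of hepatocytes, had 148660 CPM in that control against 4.02 to 3879 CPM in the 5 others. Control replicate 3, second in Alb at 3879 CPM, had 4.55 CPM of Nox4, below knockout replicates 1 and 2. The part of liver RNA in the values of Nox4 was not tested. Relative to the macrophage markers Nox4 was at 0.0197, 0.0143 and 0.0272 in knockouts and at 0.0287, 2.21 and 0.0618 in controls. On that scale each knockout was below each control, by -2.999 on the log2 scale (exact permutation p = 0.1, the smallest possible here) and by -1.09 without control replicate 2. The marker mean in the denominator was above every control's in all 3 knockouts.

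Nos2 (chromosome 11, 78920787 to 78960254, plus strand) had 8.24, 6.94 and 4.70 CPM in knockouts and 3.75, 0 and 8.40 CPM in controls. It was detected with 100 to 252 counts in the 5 libraries without the liver profile. Control replicate 2 had 0 counts, which allows a level of up to 0.268 CPM there (3 counts). Control replicate 3 was the highest of all, so the groups overlapped. The log2 fold change was 0.70 ± 1.31 (edgeR adjusted p 0.912) and 0.14 ± 0.47 without control replicate 2 (adjusted p 0.941). Without that library the estimate lay within 1 standard error of 0.

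Per unit of macrophage markers, Nos2 was at 0.0272, 0.0197 and 0.0507 in knockouts and at 0.0415, at most 0.00800 and 0.114 in controls. Outside control replicate 2, the lowest values were those of knockout replicates 1 and 2, the libraries highest in macrophage markers. The groups overlapped (-0.160 on the log2 scale with the 0 set to 3 counts, exact permutation p = 1.0). Among the nitric oxide synthases, endothelial Nos3 had 52.8, 38.3 and 46.9 CPM in knockouts and 38.9, 2.86 and 45.4 CPM in controls. Per length it exceeded Nos2 by 5.77 to 11.1 times in the 5 libraries without the liver profile. Neuronal Nos1 had 53 to 88 counts in knockouts and 55, 4 and 78 counts in controls.

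The profiles of the members over libraries are given as a description. After centring each gene on its own mean over the 5 libraries without control replicate 2, profiles were compared by the root mean square difference in log2(CPM + 1). Cyba and Ncf4 differed by 0.125, Rac2 and Ncf4 by 0.267, and Cybb and Rac2 by 0.287. Nox4 and Nos2 differed from each other by 0.161 and from these 4 genes by 0.950 to 1.108. Ncf1 lay between, at 0.460 from Cyba and 0.558 from Nox4. Adgre1 was at 0.310 from Cybb, 0.38 from Rac2, 0.509 from Ncf4, 0.622 from Cyba, 0.917 from Ncf1, 1.28 from Nox4 and 1.38 from Nos2. Standard deviations over the 5 libraries were 1.47 for Cybb and 1.36 for Rac2, against 0.451 for Nox4 and 0.439 for Nos2, so the pair with little variation could differ little from each other.

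**Figure D4:**
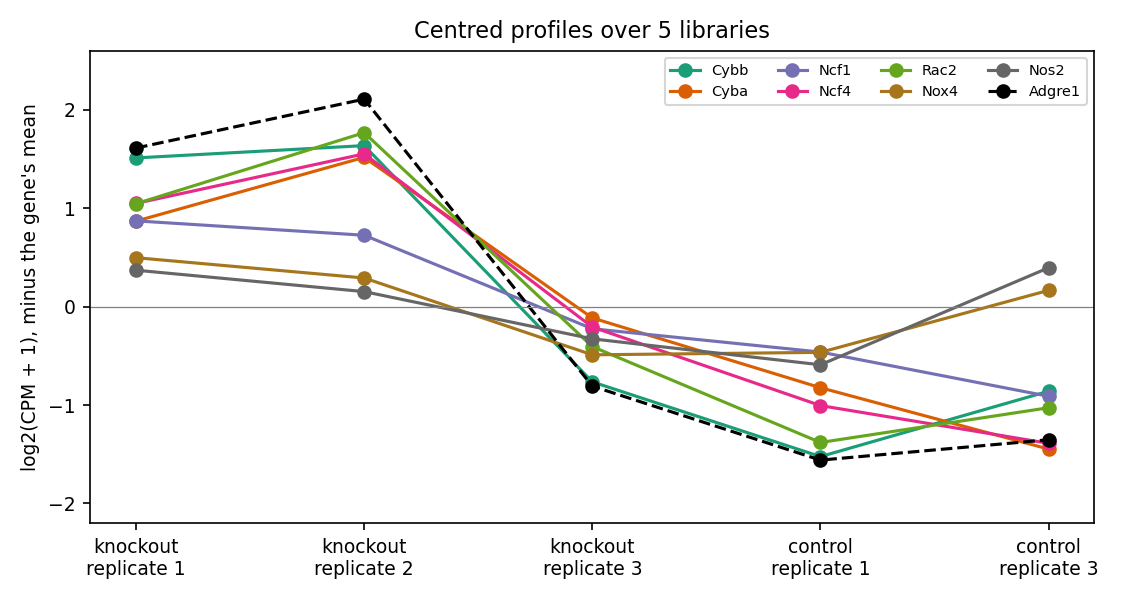
Log2(CPM + 1) minus each gene's own mean on the y axis, for the 5 libraries without control replicate 2 on the x axis; lines join the values of one gene, and the dashed line is the macrophage gene Adgre1. Cybb and Rac2 lie closest to Adgre1, Ncf4 and Cyba lie farther from it, and Ncf1 has a smaller range. Nox4 and Nos2 stay near 0 with control replicate 3 above knockout replicate 3.

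Of 15921 other genes tested, the profile most like that of Cybb was that of Dock2, an activator of Rac in blood cells, at a root mean square difference of 0.102, then Fat3 at 0.105 and the bacterial lipoprotein receptor Tlr1 at 0.119. Dock2 had 84.7, 109.5 and 17.9 CPM in knockouts and 9.06, 2.06 and 15.9 CPM in controls. For Cyba these were Dnase2a (0.0912), Clec4a2 (0.131) and Hmga1b (0.145), and for Ncf4 Clec4a2 (0.0446), Cd37 (0.131) and Cdt1 (0.140). Clec4a2, a C-type lectin receptor of myeloid cells, thus stood near both. For Rac2 the nearest were Qpct (0.0771), the phosphatase gene Ptpn6 (0.0896) and Fgd3 (0.0961), and for Ncf1 Sdf2l1 (0.0763), Gm15590 (0.0781) and Lmo2 (0.0948). The genes nearest to Nox4 were Usp12, Zbtb7c and Maml3 (0.0632 to 0.0724), and those nearest to Nos2 were Naaladl2, the basement membrane collagen gene Col4a1 and Tcf7l1 (0.0289 to 0.0448).

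Beyond the members, 12 of 17 other oxidase genes had enough counts to be tested. None passed the edgeR test adjusted over all genes, and their median log2 fold change was 0.53, or 0.17 without control replicate 2. Of the 12, 1 gene, not reported here, had an unadjusted p under 0.05, higher in knockouts (4.38% of all genes tested). DESeq2 called 1 higher with all 6 libraries (1.42% of all genes) and 1 without control replicate 2 (2.22%). Every knockout was above every control for 3 of 12, against 9.54% of all genes tested, and below for 1, against 5.61%. Cybc1, the chaperone that Cybb needs for its maturation, had 36.9, 37.8 and 28.3 CPM in knockouts and 26.4, 19.0 and 23.4 CPM in controls (0.58 ± 0.27, edgeR adjusted p 0.561). The proton channel gene Hvcn1 had 13.3, 16.2 and 8.69 CPM in knockouts and 2.13, 2.86 and 10.7 CPM in controls (1.27 ± 0.70, edgeR adjusted p 0.606). Duox1, a peroxide-forming relative of epithelia, had 25, 24 and 33 counts in knockouts and 7, 1 and 16 counts in controls (edgeR adjusted p 0.579). Nox1 and Nox3 had 0 to 4 counts in each library.

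Of 25 kinase and GTPase regulator genes of oxidase activation, 12 had an unadjusted p under 0.05, all of them higher in knockouts (4.38% of all genes tested), and the median log2 fold change was 1.09. None passed the edgeR adjusted test, and DESeq2 called 4, all higher (1.42% of all genes). Arhgap25, a Rac GTPase-activating protein of leukocytes, had 104, 128 and 21.3 CPM in knockouts and 6.55, 4.74 and 10.5 CPM in controls (3.54 ± 0.74, edgeR adjusted p 0.560). Pak1, a Rac-dependent kinase that acts on p47phox, had 19.1, 24.0 and 5.43 CPM in knockouts and 3.71, 1.97 and 4.36 CPM in controls (2.26 ± 0.65). Vav1, an activator of Rac, had 26.0, 41.4 and 7.88 CPM in knockouts and 7.90, 5.19 and 5.35 CPM in controls (2.03 ± 0.62), with knockout replicate 3 within the control range.

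Of 21 tested transcription factors and signals linked to oxidase and Nos2 genes, 3 had an unadjusted p under 0.05, all higher in knockouts (4.38% of all genes tested), and 0 passed the edgeR adjusted test. Without control replicate 2 these were 6, all higher (5.46% of all genes). DESeq2 called 2 higher with all 6 libraries, Spi1 and Irf8 (adjusted p 0.00502 and 0.0207, 1.42% of all genes), and 3 without control replicate 2 (2.22%), the third being Cebpb, named after its values were seen. Spi1, which encodes the myeloid factor PU.1, had 94.3, 146 and 32.7 CPM in knockouts and 16.9, 11.7 and 13.2 CPM in controls (2.70 ± 0.58, edgeR adjusted p 0.560). Irf8, an interferon regulatory factor of myeloid cells, had 65.0, 78.5 and 21.5 CPM in knockouts and 11.9, 9.12 and 14.8 CPM in controls (2.20 ± 0.53). Tgfb1, a cytokine known to raise Nox4 in several cell types, had 119, 185 and 55.5 CPM in knockouts and 33.0, 13.9 and 41.7 CPM in controls (2.02 ± 0.60). Spi1, Irf8 and Tgfb1, named for their small p, were each higher in every knockout than in every control. So were 4 of the 21 tested genes of this list, against 9.54% of all genes tested. The reverse held for 0 of 21, against 5.61%. The cytokine gene Tnf, which can induce Nos2, overlapped between groups (2.14 ± 0.90, edgeR adjusted p 0.560). Ifng, whose product is a main inducer of Nos2, had 3, 4 and 5 counts in knockouts and 0 counts in each control, too few to be tested.

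Several genes around nitric oxide were highest in the 2 controls with the highest hepatocyte markers. Of 13 tested genes of arginine supply and nitric oxide removal, 4 had an unadjusted p under 0.05, all lower in knockouts (4.27% of all genes tested), and 0 did without control replicate 2. DESeq2 called 2 lower, Ass1 and Slc7a2 (adjusted p 0.00364 and 0.0127, 1.71% of all genes), gave no adjusted p for Arg1, Asl and Oat, and called 0 without that library. The median log2 fold change was -1.95 with all 6 libraries and -0.33 without that library. The argininosuccinate synthase gene Ass1 had 8.86, 21.8 and 7.06 CPM in knockouts and 4.49, 3206 and 135 CPM in controls. Its partner Asl had 21.9, 28.5 and 26.0 CPM in knockouts and 23.8, 988 and 41.0 CPM in controls. Slc7a2, an arginine transporter, had 4.22, 13.5 and 2.48 CPM in knockouts and 3.26, 783 and 43.3 CPM in controls, and Oat, ornithine aminotransferase, had 147, 157 and 158 CPM in knockouts and 236, 2264 and 203 CPM in controls. Arg1, the arginase that competes with Nos2 for arginine, had 1.83, 37.3 and 0.970 CPM in knockouts and 11.5, 2437 and 79.5 CPM in controls. For each of these genes except Oat, control replicates 2 and 3 were the highest libraries, and control replicate 1 was below or within the range of the knockouts.

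Of 14 nitric oxide synthase and cofactor genes, 1 had an unadjusted p under 0.05 (Gchfr, lower in knockouts, as 4.27% of all genes tested were) and 0 passed the edgeR adjusted test. Gch1, the first enzyme of tetrahydrobiopterin synthesis, had 9.61, 9.996 and 5.28 CPM in knockouts and 4.01, 243 and 13.7 CPM in controls. Its feedback regulator Gchfr had 0.261, 2.49 and 1.13 CPM in knockouts and 1.05, 248 and 6.23 CPM in controls. Both were highest in control replicate 2 and next in control replicate 3. Pts, another enzyme of that synthesis, had 27.9, 24.6 and 52.9 CPM in knockouts and 71.1, 87.1 and 47.8 CPM in controls. Of the 5 genes of the nitric oxide receptor and its targets, 0 had an unadjusted p under 0.05. The receptor subunits Gucy1a1 (0.51 ± 0.36, edgeR adjusted p 0.692) and Gucy1b1 (0.48 ± 0.37, 0.723) overlapped between groups. Prkg1, the kinase activated by cyclic GMP, was at -0.34 ± 0.85 and the receptor subunit Gucy1a2 at 0.25 ± 1.44.

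Of 12 tested enzymes and channels for superoxide and peroxide, 1 had a log2 fold change above 0, 2 had an unadjusted p under 0.05, both lower in knockouts (4.27% of all genes tested), and the median was -0.75, or -0.27 without control replicate 2. Sod1, which turns superoxide into peroxide in the cytosol, had 229, 204 and 497 CPM in knockouts and 642, 1794 and 299 CPM in controls (-1.56 ± 0.79, -0.61 without control replicate 2). Cat, catalase, had 579, 514 and 1023 CPM in knockouts and 797, 4604 and 1032 CPM in controls (-1.60 ± 0.85, -0.37 without it). Prdx6, a peroxiredoxin, had 425, 281 and 604 CPM in knockouts and 1877, 1438 and 534 CPM in controls (-1.56 ± 0.64, -1.47 without it). Aqp8, a channel that passes peroxide, had 0, 0.912 and 0.116 CPM in knockouts and 1.498, 266 and 13.4 CPM in controls, and DESeq2 called it lower (adjusted p 0.00146) with all 6 libraries and not without control replicate 2. Sod1, Cat and Prdx6 overlapped between groups. Of the peroxidases of granulocytes, Mpo had 3, 0 and 1 counts in knockouts and 0, 33 and 0 counts in controls, and Epx 0 to 2 counts in each library.

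Other leukocytes also carry the phagocyte oxidase or Rac2. The neutrophil marker S100a8 had 16.0, 9.43 and 9.39 CPM in knockouts and 100.5, 17.0 and 9.20 CPM in controls. Ly6g, named after its values were seen, had 46 counts in control replicate 1 and 0 counts in the 5 other libraries. Among the controls, that library was highest for Cyba, Ncf1 and Ncf4 and lowest for Cybb and Rac2, and each control was below each knockout for these 5 subunits. The part of neutrophils in these values was not tested. Summed B cell and T cell markers were 59.7, 73.1 and 31.7 CPM in knockouts and 13.6, 14.4 and 17.4 CPM in controls, and all 14 had nonzero counts in each knockout. Their part in the values of Cybb, Ncf1, Ncf4 and Rac2 was not tested. The mean log2(CPM + 1) of fibroblast and progenitor markers was 7.02, 7.69 and 6.42 for the knockouts, against 4.95, 4.79 and 6.59 for the controls. Among them Pdgfra had 53.1, 41.9 and 35.4 CPM in knockouts and 16.4, 8.41 and 33.1 CPM in controls. Their part in the values of Nox4 was not tested.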

How the data were processed

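The authors deposited whole-number counts per gene and library, used for the main tests, and FPKM values. The FPKM values were compared within libraries, and between groups only as alternatives to the main tests. Per the submitters' processing notes, the tools included featureCounts 1.5.0-p3, StringTie 1.3.3b, HISAT2 2.0.5 and fastp, with build mm10. The sources used here do not name the annotation release or strand setting. Of 54532 identifiers, 54409 had a symbol. Gene positions were read from GENCODE vM21 (GRCm38).

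Members and gene lists were chosen with earlier results of these data known. The main test was edgeR 4.0.16 in R 4.3.3: filterByExpr by group, TMM factors of 0.559 (control replicate 2) and 0.982 to 1.25 (other libraries), robust quasi-likelihood fits and Benjamini-Hochberg adjustment at 0.05. Dividing a log2 fold change by the square root of F gave its standard error. DESeq2 1.42.0 and limma 3.58.1 served as alternatives. On simulated counts edgeR with all 6 libraries did not recover changed genes, so its lack of calls does not show a lack of change. Replicate numbers follow record order and pair nothing. Replicates differed beyond sampling noise (chi-square per degree of freedom 56.8 to 1110). Genes named are the members, up to 4 of smallest p per pathway list, Rac1, Nos1, Nos3, Arg1, 7 markers and the 3 profiles nearest each member. Pdcd1 was given as the targeted gene. Gtf2ird2 was named for its overlap, and Nox1, Nox3, Ifng, Mpo, Epx, Marco, Cd163, Clec4f and Ly6g after their values were seen. Some genes that this rule names are not reported here.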

Additional observations from a re-analysis of the deposited data

How the results depend on the processing

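The 5 phagocyte subunits kept log2 fold changes above 0 under all 15 alternatives run, from 1.04 (Ncf1) to 2.88 (Cyba). No member was called by edgeR with any 1 library left out (0 to 0 calls), by limma-voom or on FPKM, and DESeq2 called 4 members with all 6 libraries and 4 without control replicate 2, the second added after the data were seen. Genes called over the whole table were 0 with edgeR and limma-voom (smallest edgeR adjusted p 0.560, 1377 genes at an unadjusted p under 0.05 with all 6 libraries), 0 to 0 with 1 library left out, 530 with DESeq2 and 485 with DESeq2 without control replicate 2. The cause of the gap between tools was not tested. The unadjusted edgeR p of Ncf1 was 0.0667, 0.0551 and 0.0548 without knockout replicate 1, knockout replicate 2 and control replicate 3, so 4 of the 5 subunits stayed under 0.05 there. Without controls 2 and 3 it was 0.104 for Ncf1, 0.0586 for Cybb and 0.0607 for Cyba. Nox4 ranged from -3.12 to 0.36 with 1 library left out, stood at 0.36 with DESeq2 without control replicate 2 and at 0.82 without controls 2 and 3, where the lone control was assumed to vary like the knockouts. Nos2 was above 0 under all 15, at 0.14 to 1.85.

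Per macrophage marker and with 1 library left out, Cybb ranged from -0.152 (without control replicate 1) to 0.627, Ncf1 from -0.428 to 0.0498 (without knockout replicate 2), Ncf4 from 0.161 to 0.850, Rac2 from -0.258 (without control replicate 1) to 0.706 and Nos2 from -1.20 to 0.724 (without control replicate 3), with 0.146 without knockout replicate 2. Cyba stayed above 0 in all 9 alternatives, at 0.454 to 0.814 with 1 library left out. With the geometric mean of the markers Cyba was at 0.9135, with no overlap between groups (exact permutation p = 0.1, the smallest possible here). On that scale Cybb was at 0.564, Ncf4 at 0.714, Ncf1 at 0.121, Nos2 at 0.132 and Nox4 at -2.71. Without controls 2 and 3 Cybb stood at 1.12 and Rac2 at 1.05. Nos2 has no FPKM value of this ratio, being listed at 0 in control replicate 2. No paired analysis was possible because the labels give no replicate numbers. A term for the sample title number, which sets knockout replicate 3 and control replicate 3 apart, left the subunits at 1.51 to 2.28 with adjusted p 0.789. At the depth of these libraries Nos2 under 0.268 CPM in control replicate 2 was not detectable.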
